A study of Mus musculus with 10 samples.

Results

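The genes described here encode the machinery that imports proteins into mitochondria, measured in the gastrocnemius (GAS), a calf muscle, of mice with diet-induced obesity (DIO). Members were taken by symbol, from the Timm, Tomm and Chchd names that end in a number, Samm50, the metaxins Mtx1, Mtx2 and Mtx3, Pam16, Dnlz, Grpel1, Grpel2, Pmpca and Pmpcb. A total of 43 of the 21098 genes in the table of counts carried such a symbol, and 3 other annotated matches (Chchd2-ps, Timm29-ps1 and Tomm6os) had no segment in it. Of the 43 members, 30 had enough counts to be tested and 13 did not. The rule uses names and no measured value, and it was set with earlier results of these data known.

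All animals were male wild-type (WT) C57BL/6J mice that had been given the high-fat diet D12492i from 9 weeks of age for 9 weeks and then stayed on it during treatment. The age recorded for every sample was 30 weeks. The ASO group of 5 libraries came from mice injected under the skin once weekly for 14 weeks with RES-010 at 10 mg/kg, an antisense oligonucleotide with locked nucleic acid (LNA) bases directed against the microRNA miR-22. The CTRL group of 5 libraries came from mice given matched volumes of 0.9% saline, so that no oligonucleotide of another sequence served as a control and no lean mice were included. The labels number the 5 samples of each group without naming the animals, so p-values measure the spread between these samples.

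Nearly all mitochondrial proteins are made in the cytosol and carried across the mitochondrial membranes. The TOM complex forms the gate in the outer membrane, with receptors (Tomm20, Tomm70a), a central organizer (Tomm22) and the channel (Tomm40), and the SAM complex inserts barrel-shaped proteins into that membrane. Precursors with a cleavable presequence pass on through the TIM23 channel of the inner membrane, are pulled into the matrix by an ATP-driven motor and are trimmed by the processing peptidase MPP. Carrier proteins instead travel with the small Tim chaperones through the space between the membranes to the TIM22 complex, and proteins with paired cysteines are trapped there by Chchd4. In skeletal muscle, with its many mitochondria, this traffic supplies the respiratory chain.

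Values are levels in CPM, edgeR's counts scaled to library sizes adjusted by TMM, with SD over n = 5 libraries. Each gene's counts come from segments of at most 500 bp at the 3′ ends of its transcripts. Library totals were 1606909 to 2116720 counts in CTRL and 2239186 to 2632560 in ASO, so every ASO library was deeper. Neither miR-22 nor its host gene is among the tested genes, which left the labels unchecked against the target of the oligonucleotide. Muscle fiber markers were abundant as a sum, at 40600 to 79800 CPM in CTRL and 84700 to 130000 CPM in ASO over 10 genes. Of these, 8 had counts, only 4 had enough to be tested, and Mylpf and Tnnt3 were at 0. The groups did not overlap in that sum, and its part in the differences below was not tested. Lower content of a cell type and less RNA per cell cannot be told apart in bulk muscle. The library CTRL_3 stood out by its adipocyte markers (24600 CPM, against 3920 to 12900 CPM in the other 9 libraries, with Plin4 at 0 in all) and macrophage markers (1850 CPM against 79.7 to 691 CPM, with Adgre1 and Cd163 at 0 in all). ASO_4 stood out by its slow fiber markers (7770 CPM against 28.9 to 2550 CPM, with Tnnt1 at 0 in all) and Schwann cell markers (581 CPM against 42.0 to 169 CPM). Without ASO_4 the 6 calls described next held, and without CTRL_3 all but that of Timm23 did.

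The import genes split under the ASO. Timm23, Timm44, Mtx3 and Timm10b rose, Timm17a and Timm8a1 fell, and the other 24 tested members did not pass the threshold (adjusted p of 0.05, edgeR quasi-likelihood test with Benjamini-Hochberg adjustment over 7813 genes). Among all genes tested, 11.8% were called higher and 17.4% lower, 29.2% in all, so that 6 of 30 members (20.0%) is a smaller share than the background. The fitted log2 fold change was above 0 in 22 of the 30 members (73.3%), against 48.3% of all genes, and its median was 0.21 over the members and -0.03 over all genes. The library groups did not overlap in 4 members, 2 with all ASO libraries above (background 7.97%) and 2 with all ASO libraries below (background 13.4%, and 21.4% for either).

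These counts depended on the scaling. With library totals in place of TMM, none of the members was called higher and 3 were called lower, while the median of all genes moved to -0.21, that of the members to 0.04, and 16 of 30 were above 0. Relative to the median of all genes, the members stood 0.24 higher with TMM and 0.25 higher with totals. When a gene was represented by its most distal segment alone, the members stood 0.04 higher than all genes (23 members tested, 1 higher and 2 lower). The scaling was computed anew in that fit. Values therefore moved also in Timm44, Timm50, Dnlz and Pmpcb, whose counts all lie on that segment (Timm44 from 0.66 to 0.37). With all segments, leaving out CTRL_1 brought the distance between members and all genes to 0.36 and leaving out CTRL_3 to 0.14.

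**Figure D1:**
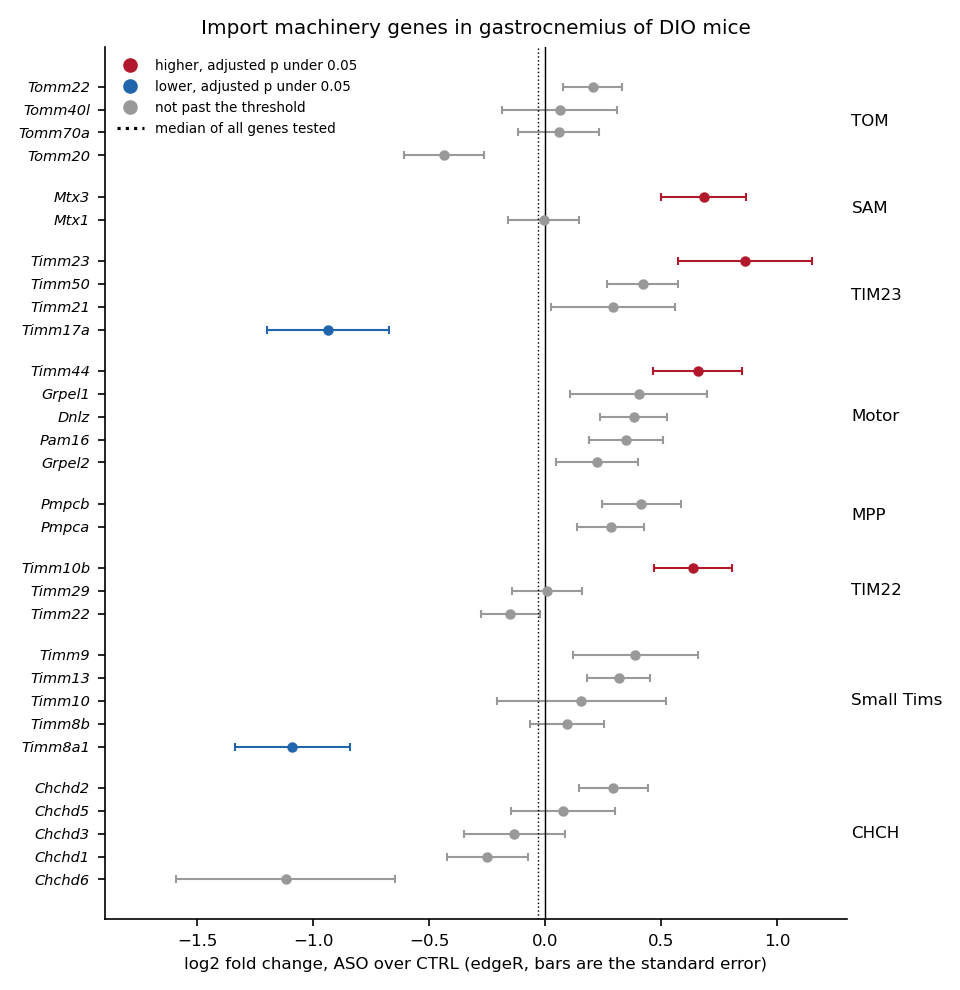
Log2 fold change (ASO over CTRL, x axis) of the 30 tested import genes, grouped by role, with bars for the standard error of the edgeR fit. Red points passed the threshold upward (4 genes), blue points downward (2 genes), and the dotted line is the median of all genes tested (-0.03).

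The TOM complex, which every imported protein meets first, was measured with 4 tested members, and none passed the threshold. Tomm20, the receptor for presequences, was at 67.4, 69.5, 66.7, 67.9 and 48.9 CPM in CTRL_1 to CTRL_5 and at 38.1, 44.2, 37.6, 62.6 and 54.2 CPM in ASO_1 to ASO_5. Of the CTRL libraries only CTRL_5 lay within the range of ASO, and the log2 fold change was -0.44 ± 0.17 (SE, adjusted p = 0.075, edgeR). Its call depended on single libraries, with an adjusted p of 0.0475 without CTRL_5 and 0.0379 without ASO_4, and with library totals as the scale it was 0.027. It was 0.242 with distal segments alone. A segment of 29 bp, chr8:127661736-127661764, held 74.4% of its counts.

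Tomm22, which links the receptors to the channel, was at 193, 152, 132, 155 and 164 CPM in CTRL and at 169, 179, 195, 191 and 185 CPM in ASO, in the order of the replicate numbers. The groups overlapped through CTRL_1, and the log2 fold change of 0.20 ± 0.13 (SE, adjusted p = 0.244, edgeR) did not pass the threshold. Tomm70a, the receptor that takes carriers from cytosolic chaperones, was at 25.5, 23.8, 23.2, 18.9 and 25.8 CPM in CTRL and at 21.2, 25.9, 31.3, 19.6 and 24.0 CPM in ASO. Its 2 groups covered nearly the same range (log2 fold change 0.06 ± 0.18, SE, adjusted p = 0.823, edgeR), as did those of Tomm40l, a relative of the channel protein (0.06 ± 0.25).

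The channel Tomm40 itself, with 7 counts over the 10 libraries on 155 bp not shared with other segments, could not be tested. It had 0 counts in 3 CTRL and 4 ASO libraries and at most 3 in any. The small subunits Tomm5 (0 counts on 4 unshared bp), Tomm6 (10 counts on 93 bp) and Tomm7 (11 counts on 500 bp) were also too low, as were Tomm20l, a relative of Tomm20 (2 counts), and Tomm34, a cytosolic partner whose segment has no unshared base. Counts this low gave no level for these genes, Tomm7 among them with all of its 500 bp unshared.

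In the SAM group, Mtx3 rose and Mtx1, its relative, did not pass the threshold. Both are metaxins, outer membrane partners of the barrel-inserting pore. Mtx3 was at 18.9, 15.9, 18.3, 18.3 and 13.5 CPM in CTRL and at 23.7, 20.8, 33.0, 29.6 and 29.2 CPM in ASO. Every ASO library was above every CTRL library, and the level went from 17.0 ± 2.26 to 27.3 ± 4.92 CPM (SD, n = 5), a log2 fold change of 0.68 ± 0.18 (SE, adjusted p = 0.0146, edgeR). The call held without each of the 10 libraries and was lost with library totals as the scale (adjusted p = 0.0598). Its distal segment, chr13:92994239-92994738 on the plus strand of GRCm39, held 91.8% of the counts and rose by 1.00 ± 0.21 on the log2 scale (SE, adjusted p = 0.00233, edgeR on segments). In a fit of distal segments alone it rose by 0.66 (adjusted p = 0.0338).

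Mtx1 was at 76.3 ± 12.3 CPM in CTRL and 76.1 ± 11.1 CPM in ASO (SD, n = 5), a log2 fold change of -0.01 ± 0.15. Samm50, the barrel-inserting pore, was at 3.3, 3.26, 4.45, 2.36 and 3.93 CPM in CTRL and at 3.38, 2.97, 5.08, 4.17 and 5.19 CPM in ASO. These are 4 to 12 counts per library, too few for the test. Mtx2 had 2 counts in all.

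The TIM23 translocase, the inner membrane channel for presequence proteins, had its channel-forming partners moving in opposite directions. Timm23, the channel subunit, was at 17.9, 13.1, 8.89, 9.44 and 7.3 CPM in CTRL and at 18.3, 20.8, 32.1, 15.9 and 16.5 CPM in ASO. CTRL_1 was the only CTRL library within the range of ASO, and ASO_3 was the highest. The mean level rose from 11.3 ± 4.25 to 20.7 ± 6.66 CPM (SD, n = 5), a log2 fold change of 0.86 ± 0.29 (SE, adjusted p = 0.0395, edgeR), the largest rise among the members. It was also the least stable of the 6 calls, since the adjusted p was between 0.0501 and 0.0997 without CTRL_2, CTRL_3, CTRL_4, CTRL_5, ASO_1, ASO_2 or ASO_3, each left out alone. It was 0.0829 with library totals and 0.269 with the most distal segment only, where the log2 fold change was 0.53 with the scaling computed anew. Fitted together with all other segments, the same segment rose by 0.86 ± 0.32 on the log2 scale (SE, adjusted p = 0.047, edgeR on segments). The gene's main segment is chr14:31902119-31902511 on the minus strand, with 89.1% of its counts, and 11 to 38 of them in each CTRL library.

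Timm17a, which pairs with Timm23 in the channel, fell. It was at 24.5, 21.9, 24.2, 29.5 and 28.1 CPM in CTRL and at 10.6, 11.5, 7.19, 15.9 and 21.7 CPM in ASO. All ASO libraries were below all CTRL libraries, though ASO_5 lay just under CTRL_2. The mean fell from 25.6 ± 3.08 to 13.4 ± 5.59 CPM (SD, n = 5), a log2 fold change of -0.94 ± 0.26 (SE, adjusted p = 0.0181, edgeR), and the adjusted p was 0.0502 without ASO_1. It was counted on 1 segment, chr1:135222951-135223450 on the minus strand, with 17 to 52 counts per library. Its paralog Timm17b had 1 count over the 10 libraries, so that the fall of Timm17a could not be set against it.

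Timm50, the receptor that hands precursors to the channel, was at 86.2 ± 16.1 CPM in CTRL and 115 ± 14.3 CPM in ASO (SD, n = 5), a log2 fold change of 0.42 ± 0.15 (SE, adjusted p = 0.056, edgeR). Its adjusted p was 0.0442 with RLE size factors and 0.0364 with DESeq2. The log2 fold change was 0.24 with library totals (adjusted p = 0.198) and 0.14 with distal segments alone (adjusted p = 0.544). Timm21, which couples the channel to TOM, was at 10.7 ± 3.59 and 13.1 ± 0.576 CPM (SD, n = 5), with an adjusted p of 0.437 (edgeR).

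In the motor that pulls precursors into the matrix, the fitted change was above 0 in 5 of 5 members, also under each other setting run. Of these members, Timm44 alone passed the threshold. The symbol rule leaves out Hspa9, the gene of the matrix chaperone mtHsp70, and the J-protein genes Dnajc19 and Dnajc15. Dnajc19 passed narrowly (log2 fold change 0.46, adjusted p = 0.04997, edgeR). Hspa9 (0.25, adjusted p = 0.343, edgeR) and Dnajc15 (0.41, adjusted p = 0.0808, edgeR) did not. Timm44, which tethers the matrix chaperone mtHsp70 to the channel, was at 183, 145, 93.4, 114 and 139 CPM in CTRL and at 170, 179, 269, 208 and 239 CPM in ASO. CTRL_1 lay within the range of ASO, and the other 4 CTRL libraries were below it. The mean rose from 135 ± 33.9 to 213 ± 41.4 CPM (SD, n = 5), a log2 fold change of 0.66 ± 0.19 (SE, adjusted p = 0.0224, edgeR). The adjusted p was 0.062 without CTRL_4, 0.0534 with library totals and 0.178 with distal segments alone. It is counted on 1 segment of 405 bp, chr8:4309731-4310135 on the minus strand, with 189 to 637 counts per library, and is the most deeply counted of the 6 called members.

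Grpel1, the exchange factor that releases ADP from mtHsp70, was at 13.7, 14.5, 8.89, 16.5 and 5.62 CPM in CTRL and at 14.5, 15.7, 22.8, 12.5 and 12.7 CPM in ASO. The ranges overlapped, and the log2 fold change was 0.40 ± 0.30 (SE, adjusted p = 0.329, edgeR). Its paralog Grpel2 was at 61.4 ± 13.8 and 71.7 ± 12.9 CPM (SD, n = 5), Pam16, the regulator of the motor's J-protein, at 150 ± 22.4 and 191 ± 37.0 CPM, and Dnlz, a zinc finger helper that keeps mtHsp70 soluble, at 35.4 ± 2.05 and 46.1 ± 7.68 CPM. Dnlz was the nearest of these to the threshold (log2 fold change 0.38 ± 0.15, SE, adjusted p = 0.0673, edgeR), and its adjusted p was 0.0223 without ASO_2 and 0.0497 with RLE size factors. Its log2 fold change was 0.19 with library totals (adjusted p = 0.316) and 0.09 with distal segments alone (adjusted p = 0.717).

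MPP, the peptidase that removes presequences, consists of the subunits Pmpca and Pmpcb, and neither passed the threshold. Pmpca was at 283, 304, 233, 310 and 253 CPM in CTRL and at 360, 325, 305, 280 and 412 CPM in ASO. Both groups held values from 280 to 310 CPM, and the log2 fold change was 0.28 ± 0.14 (SE, adjusted p = 0.159, edgeR). Pmpcb, the catalytic subunit, was at 223, 149, 143, 140 and 139 CPM in CTRL and at 179, 174, 257, 225 and 224 CPM in ASO. Here CTRL_1 stood apart from the other 4 CTRL libraries, all of which were below ASO. The log2 fold change was 0.41 ± 0.17 (SE, adjusted p = 0.085, edgeR), and without CTRL_1 it was 0.57 with an adjusted p of 0.0153. It was 0.23 with library totals (adjusted p = 0.298) and 0.12 with distal segments alone (adjusted p = 0.629).

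The carrier pathway showed 1 rise at the TIM22 complex. Timm10b, the small Tim that docks the chaperones on TIM22, was at 22.2, 28.4, 22.7, 24.8 and 21.3 CPM in CTRL and at 33.3, 30.2, 48.2, 40.1 and 34.0 CPM in ASO. Every ASO library was above every CTRL library. The mean rose from 23.9 ± 2.84 to 37.1 ± 7.15 CPM (SD, n = 5), a log2 fold change of 0.64 ± 0.17 (SE, adjusted p = 0.0135, edgeR), which held without each of the 10 libraries and was 0.0576 with library totals. The value rests on a segment of 144 bp, chr7:105290412-105290555 on the plus strand, that holds 99.8% of the gene's counts, has 45 bp not shared with other segments and lies 2289 bp upstream of the gene's most distal one. With the most distal segment only, the gene was not tested.

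Timm22, the channel for carriers, was at 111, 95.6, 80.5, 108 and 99.4 CPM in CTRL and at 101, 85.8, 78.2, 91.8 and 89.1 CPM in ASO. The groups overlapped almost wholly (log2 fold change -0.15 ± 0.13, SE, adjusted p = 0.404, edgeR). Timm29, a vertebrate subunit of TIM22, was at 142 ± 19.0 and 143 ± 23.3 CPM (SD, n = 5).

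Among the small Tim chaperones of the intermembrane space, Timm8a1 fell and 4 others did not pass the threshold. Timm8a1, whose human counterpart is mutated in a deafness and dystonia syndrome, was at 28.3, 20.5, 17.8, 17.1 and 23.0 CPM in CTRL and at 10.1, 7.65, 6.77, 14.6 and 10.8 CPM in ASO. All ASO libraries were below all CTRL libraries. The mean fell from 21.3 ± 4.54 to 10.0 ± 3.08 CPM (SD, n = 5), a log2 fold change of -1.09 ± 0.25 (SE, adjusted p = 0.00642, edgeR), and the call held without each library (adjusted p 0.00436 to 0.0181). It was counted on 1 segment of the X chromosome, chrX:133438005-133438504 on the minus strand, with 16 to 60 counts per library.

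Timm13, the partner with which Timm8 proteins form a chaperone ring, was at 270 ± 34.8 CPM in CTRL and 337 ± 39.2 CPM in ASO (SD, n = 5), a log2 fold change of 0.32 ± 0.14 (SE, adjusted p = 0.0973, edgeR). DESeq2 gave it an adjusted p of 0.0447. The log2 fold change was 0.13 with library totals (adjusted p = 0.422) and 0.23 with distal segments alone (adjusted p = 0.365). Fitted apart, its segments chr10:80735284-80735783 and chr10:80735738-80735994 were called higher (0.56 and 0.85, adjusted p = 0.0226 and 0.00228, edgeR on segments). The segment chr10:80735926-80736127, with 59.9% of the counts, was at 0.09 (adjusted p = 0.66, edgeR on segments). Timm9 and Timm10, which form the other ring, were at 9.2 ± 2.76 and 12.1 ± 2.96 CPM and at 14.3 ± 6.89 and 16.1 ± 6.57 CPM. Timm8b was at 400 ± 79.8 and 427 ± 51.0 CPM, and Timm8a2 had 4 counts, all in CTRL_5.

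The CHCH domain proteins, small proteins held by paired disulfide bonds, had 5 tested members and no call. Chchd2, a regulator of respiration and cristae, had the highest level of the members at 1646 ± 264 CPM in CTRL and 2017 ± 195 CPM in ASO (SD, n = 5), with a log2 fold change of 0.29 ± 0.15 (SE, adjusted p = 0.157, edgeR). How reads shared with its annotated copy Chchd2-ps were assigned is uncertain. Per kb of unshared counted sequence it was also the highest, at 7160 CPM per kb in CTRL, followed by Timm8b (1820) and Chchd1 (914). Chchd1, a protein of the mitochondrial ribosome, was at 282 ± 67.8 and 237 ± 31.4 CPM. Chchd3 and Chchd6, subunits of the MICOS complex that shapes cristae, were at 17.6 ± 4.33 and 16.1 ± 2.22 CPM and at 9.26 ± 7.6 and 4.24 ± 0.427 CPM. Chchd6 had a log2 fold change of -1.12 ± 0.47 (SE, adjusted p = 0.0918, edgeR) that turned on CTRL_3 (22.2 CPM, 45 counts), since without this library it was -0.49. Its counted segment lies 186195 bp upstream of the gene's most distal one.

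Chchd4, the import receptor that oxidizes these proteins, was at 0.472, 0.933, 0.494, 0 and 0 CPM in CTRL and at 0.483, 2.12, 0.423, 1.25 and 1.89 CPM in ASO. These values come from 18 counts in all and could not be tested. Chchd7 had 43 counts and Chchd10, with 22 unshared bp, had 0.

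**Figure D2:**
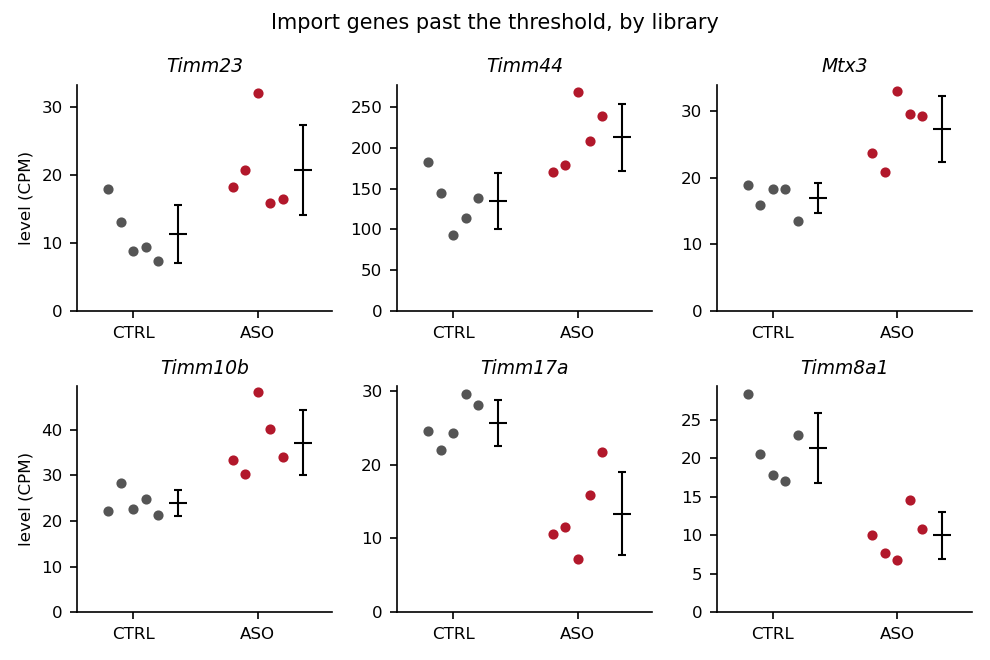
Level in CPM (y axis, from 0) of the 6 import genes past the threshold in each CTRL (grey) and ASO (red) library, with the mean and SD of 5 libraries beside the points. Mtx3, Timm10b, Timm17a and Timm8a1 show no overlap between the groups, while in Timm23 and Timm44 the library CTRL_1 reaches into the range of ASO.

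Library by library, the members did not move as a block. CTRL_3 was the lowest of the 10 libraries in 11 of 30 members, with a median deviation of -0.32 on the log2 scale from each gene's mean, while ASO_3 was the highest in 12 members and the lowest in 6. CTRL_1 had a median deviation of 0.16, close to that of ASO_5 (0.17) and ASO_3 (0.20), whereas CTRL_4 (-0.18) and CTRL_5 (-0.14) were low. Counts on the members made up 0.401% to 0.531% of a CTRL library and 0.439% to 0.482% of an ASO library, so that the summed share overlapped between the groups.

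**Figure D3:**
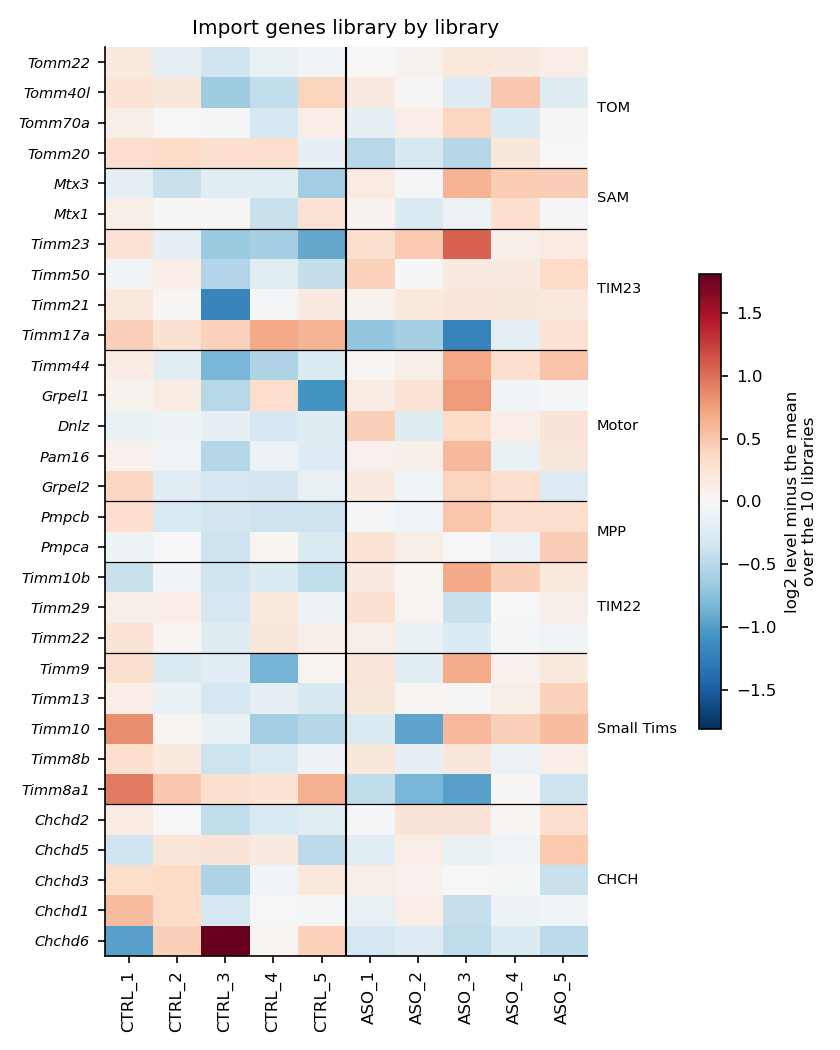
Deviation of each tested import gene (rows, grouped by role) from its own mean over the 10 libraries, on the log2 scale (colour), for each library (columns, CTRL left of the line). Timm17a and Timm8a1 are above their own mean in all 5 CTRL libraries, and CTRL_3 is the lowest library in 11 of the 30 genes and the highest in Chchd6.

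Counts within a gene also shifted along its 3′ end. For genes with 2 or more segments counted deeply enough, the distal-most segment was set against those upstream of it in each library, as a log2 ratio of counts, a comparison chosen after seeing the data. In 42.9% of 2921 such genes all ASO libraries were above all CTRL libraries and in 1.47% all were below, so that a shift to the distal end was common to this data set. Of 7 members with such a ratio, 3 (Tomm22, Mtx1 and Grpel2) had all ASO libraries above all CTRL libraries.

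Tomm22 had the largest shift of these. Its log2 ratio was 0.79, 0.905, 0.529, 0.177 and 0.348 in CTRL and 1.26, 1.23, 2.56, 2.16 and 2.31 in ASO, a difference of 1.35 (two-sided exact permutation p = 0.00794, the smallest this design allows). Fitted apart, its segment of 389 bp, chr15:79556493-79556881, rose by 0.65 ± 0.17 on the log2 scale (SE, adjusted p = 0.00783, edgeR), and the segment of 500 bp that starts upstream of it, chr15:79556267-79556766, had a log2 fold change of -0.68 ± 0.20 (SE, adjusted p = 0.0165, edgeR). The summed count of the gene holds both. The segments overlap, and how reads on shared bases were assigned is not given in the sources used here.

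Mtx1 differed in the same direction. Its ratio differed by 1.01 (exact permutation p = 0.00794), with its segment chr3:89116396-89116895 at a log2 fold change of 0.66 ± 0.17 (SE, adjusted p = 0.00786, edgeR) and the one at chr3:89117339-89117838 at -0.45 ± 0.19 (SE, adjusted p = 0.0776, edgeR). Grpel2 differed by 0.83 (exact permutation p = 0.00794), with a rise of 0.83 ± 0.22 (SE, adjusted p = 0.00957, edgeR) on the distal segment and -0.02 ± 0.20 on the upstream one. In a fit of distal segments alone that rise was 0.49 and missed the threshold (adjusted p = 0.124). Timm22 differed by 0.70 with overlap (exact permutation p = 0.0238), with 6 to 16 counts per library on its distal segment. Its upstream segment chr11:76300023-76300522, with 21.8% of the counts, fell by 0.79 on the log2 scale (adjusted p = 0.0288, edgeR). The upstream segment chr11:76304949-76305155, with 73.0%, was at 0.04 (adjusted p = 0.824, edgeR). Timm9, whose distal segment has no unshared base, went the other way by -0.56 (exact permutation p = 0.0397), while Tomm20 and Timm13 differed by 0.34 and 0.22 (exact permutation p = 0.421 and 0.103). Over single segments, 11 of 38 member segments, from 10 members, were called higher and 4 lower, with a background of 16.0% higher and 24.7% lower of 10652 segments.

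**Figure D4:**
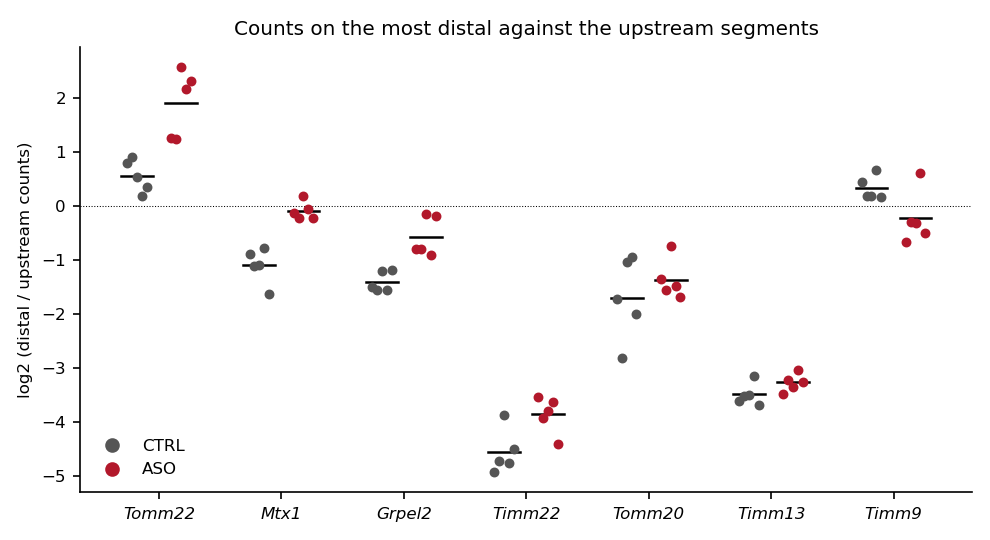
Distal over upstream segment counts as a log2 ratio (y axis) for 7 import genes, with a point for each CTRL (grey) and ASO (red) library and a line at each mean. Tomm22, Mtx1 and Grpel2 show no overlap between the groups, and Timm9 is the only one of the 7 with a lower ASO mean.

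The balance within pairs of related subunits was compared in each library. Apart from the 0.5 added to each level, such a ratio does not depend on scaling between libraries. Both genes were tested in 5 of 8 listed pairs. The log2 ratio of Timm8a1 to Timm8b was -4.13, -4.46, -4.10, -4.28 and -4.02 in CTRL and -5.47, -5.50, -6.02, -4.65 and -5.29 in ASO. All ASO ratios were below all CTRL ratios, with a difference of -1.19 (two-sided exact permutation p = 0.00794, adjusted p = 0.0397 over 5 pairs). With 1 library left out, the smallest adjusted p that a single pair can reach is 0.0794, and the difference then lay between -1.38 and -1.03. Mtx1 to Mtx3 differed by -0.66 (exact permutation p = 0.0238, adjusted p = 0.0595), with ASO_1 and ASO_4 above the lowest CTRL ratio. The ratios of Grpel1 to Grpel2, Chchd3 to Chchd6 and Pmpca to Pmpcb differed by 0.22, 0.63 and -0.15 (adjusted p = 0.532 in an exact permutation test for each).

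**Figure D5:**
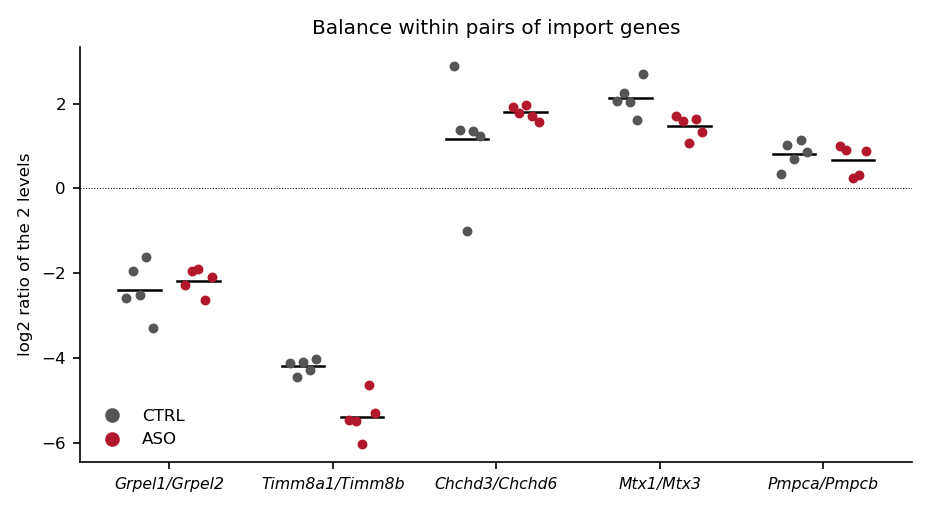
Log2 ratio of the levels of 2 related import genes (y axis) in each CTRL (grey) and ASO (red) library, with a line at each mean. The Timm8a1 to Timm8b ratio is the only one of 5 without overlap between the groups, and CTRL_3 is the low point of the Chchd3 to Chchd6 ratio.

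Since the oligonucleotide is directed against miR-22, the 3′UTRs of the members were searched for the seed match GGCAGCT. The mature miRNA is shown with its seed (bases 2 to 8) in capitals, from RefSeq on GRCm38.p6, where it lies at chr11:75463772-75463793 on the plus strand.
mmu-miR-22-3p: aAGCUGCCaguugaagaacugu
The heptamer occurred in the longest 3′UTR of 10 of the 30 tested members (33.3%), against 18.7% of 7781 tested genes with a 3′UTR. Timm44 had 2 matches within its counted segment. Timm17a had 1, upstream of its counted segment. Timm10b had 1, downstream of the end of the segment that holds 99.8% of its counts. Transcripts that end with that Timm10b segment do not include the match. They are shown because these 3 genes passed the threshold, 2 upward and 1 downward, with the match in capitals and the windows at chr8:4310100-4310129 and chr8:4310004-4310033 (minus strand), chr7:105291328-105291357 (plus strand) and chr1:135223718-135223747 (minus strand) of GRCm39.
Timm44, first match: caatggagtctaGGCAGCTcgaggctagac
Timm44, second match: caagttcttcagGGCAGCTgtgaaaccagc
Timm10b: gagtcctttcctGGCAGCTgccggttctgt
Timm17a: aaacaaaatacaGGCAGCTgtgtttaaaaa
Of the other called members, Timm23, Mtx3 and Timm8a1 held no match in that UTR. The median log2 fold change was 0.19 over the 10 tested members with a match and 0.24 over the 20 without, and -0.03 over all tested genes both with a match and without. A match is a description of the sequence and no evidence of binding.

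Promoters were available for 37 of the 43 members, as RefSeq windows of equal length around the transcription start (GRCm38.p6). The octamer CCGGAAGT, the core recognized by ETS factors such as GABP, was sought on both strands. It was found in 10 of these 37 members and in 4.31% of 27025 genes. The latter are all genes with such a window, whether or not they were tested here, so the sets are unlike and no enrichment was tested. Of the 6 called members, Mtx3, Timm23 and Timm10b held it, at chr13:92844745-92844774 (plus strand), chr14:32201920-32201949 (minus strand) and chr7:105640465-105640494 (plus strand). They are printed because all 3 rose, with the match, which reads as its reverse complement, in capitals.
Mtx3: cggtacgagtACTTCCGGgtgacagaggtc
Timm23: cgcgcttcccACTTCCGGgccgcacacagc
Timm10b: gagtagtgagagtttACTTCCGGggcgact
The other 7 members with the octamer were Chchd5, Mtx2, Pmpcb, Timm10, Timm29, Timm8a2 and Tomm70a. Of these, Mtx2 and Timm8a2 were not tested and the others were not called. The palindrome bound by NRF-1, GCGCA followed by its reverse complement, was in 0 of 37 members and in 1.07% of genes.

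Around the import machinery, other mitochondrial genes were read from hand-written lists. Of 30 tested genes that assist import and assembly, 6 rose and 5 fell (36.7% called, against 29.2% of all genes). Micos13 and Immt, both of MICOS, went from 113 to 209 CPM and from 848 to 571 CPM (log2 fold change 0.88 and -0.57, adjusted p = 0.00239 and 0.0106, edgeR). The outer membrane insertase Mtch2 rose from 319 to 452 CPM, and its relative Mtch1 fell from 66.1 to 32.4 CPM. Cox17, a copper chaperone and substrate of Chchd4, fell from 25.4 to 4.79 CPM (log2 fold change -2.39, adjusted p = 0.00059, edgeR), and Xpnpep3, a peptidase that trims imported proteins, from 26.8 to 11.7 CPM.

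Of 20 tested mitochondrial chaperones and proteases, 8 rose and 2 fell (10 of 20 called). Atf4, a transcription factor of the stress response, went from 115 to 255 CPM (log2 fold change 1.15, adjusted p = 0.00129, edgeR), Phb2, of the prohibitin ring, from 197 to 331 CPM, and the matrix proteases Clpp and Lonp1 from 54.6 to 95.1 CPM and from 139 to 212 CPM. Spg7, a subunit of the m-AAA protease, and Parl, the rhomboid protease, fell from 50.1 to 22.3 CPM and from 64.5 to 44.4 CPM.

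Proteins of the respiratory chain, the mitochondrial ribosome and the matrix are cargo of this machinery. Of 57 tested nuclear genes of oxidative phosphorylation, 27 rose and 3 fell (52.6% called), with a median log2 fold change of 0.47. Ndufa12, Ndufa13 and Ndufb7 of complex I rose from 256 to 512 CPM, from 436 to 894 CPM and from 181 to 370 CPM, and Ndufa9 and Ndufs4 fell from 12.04 to 2.21 CPM and from 104 to 66.8 CPM. Of 60 tested genes of the mitochondrial ribosome, 14 rose (among them Mrpl52, Mrpl55, Mrpl38, Mrps7, Mrpl2 and Mrpl37) and 3 fell (28.3% called, near the background), with a median of 0.25. Of 16 tested genes of the matrix citric acid cycle, Idh3g and Pdhb rose and Suclg1 and Fh1 fell (4 of 16 called), with a median of 0.04. The difference between these lists and the import genes was not tested.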

How the data were processed

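The authors made stranded poly(A) libraries. The deposited values are unnormalized counts of read pairs on segments of at most 500 bp at 3′UTR ends, which the authors obtained with fastp, STAR (GRCm39) and featureCounts of Subread on Gencode M25. The strand option is not given in the sources used here. Here, 52361 of 52423 segment identifiers were located in GENCODE M39 (the 62 others hold 0.0197% of counts) and segments were summed per gene. A total of 17994 segments had no base outside overlaps with others and hold 9181 counts. In the table, 4 further per-sample columns match no label and were not used. Genes kept by filterByExpr were tested with edgeR 4.0.16 (TMM, quasi-likelihood, Benjamini-Hochberg adjustment). DESeq2 1.42.0, which the authors used, and limma-voom (limma 3.58.1) were alternatives in R 4.3.3. Pair and segment ratios are log2 values with 0.5 added before division, compared by two-sided exact permutation tests over 252 labellings, and a segment needed 50 counts. Library totals (1606909 to 2632560) set the precision, and errors are SDs over libraries. Values in every library are given for members past the threshold and for central subunits, and up to 6 genes past the threshold, those with the smallest adjusted p, are named for each other list. Dnajc19, Hspa9 and Dnajc15 are named besides, as genes of the motor. The members and lists were chosen with earlier results of these data known. Procedures were tested on simulated data with known changes.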

Additional observations from a re-analysis of the deposited data

Results flagged for a closer look

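In 7 of 60 sets of 5 libraries (30 tested members in each group), a lone library stood apart from the other 4 by Dixon's criterion at its 95% level. Chance gives about 1 in 20 such sets. Chchd6 was at 22.2 CPM in CTRL_3 against 2.36 to 7.93 CPM in the other CTRL libraries, and Timm21 was at 4.45 CPM (9 counts) in the same library against 11.2 to 13.2 CPM. Grpel2 and Pmpcb were at 85.4 and 223 CPM in CTRL_1, above 51.9 to 59.5 and 139 to 149 CPM in the other CTRL libraries. Tomm20 was at 48.9 CPM in CTRL_5 against 66.7 to 69.5 CPM. In ASO, Timm21 was at 12.1 CPM in ASO_1 against 13.2 to 13.5 CPM, and Chchd3 at 12.3 CPM in ASO_5 against 16.3 to 17.9 CPM.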

How the results depend on the processing

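Depth and summed muscle fiber markers differed between the groups without overlap and cannot be told apart from treatment, and 13 members had too few counts to test. With every library drawn down to the smallest total, 5 members were called higher and 2 lower. Timm23, Timm44, Mtx3, Timm10b, Timm17a and Timm8a1 were among them. Timm8a1 and Timm17a fell under every alternative named here, with Timm17a short of the threshold only without ASO_1. The log2 fold changes of Timm23, Timm44, Mtx3 and Timm10b stayed above 0 throughout. The number of members called higher was 8 with the upper quartile, 0 with library totals, 7 with DESeq2 and 1 with the distal segment alone, and between 2 and 5 with 1 library left out, the number lower then being 1 to 3. Each segment on its own, chosen after seeing the data, gave 10 members with a segment called higher and 4 with one called lower. Library totals gave 528 genes higher in all and a members' median of 0.0386, and the distal segment alone 232 higher, 335 lower and 0.00907. The pairs called numbered 0 to 2 with 1 library left out.

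Same-numbered libraries correlated at -0.428, 0.0577, 0.0519, 0.0601 and 0.164 in their deviations from the group means. These values gave no sign that the numbers pair the samples, though such a check cannot exclude it. With the replicate block, 2 members were called higher and 2 lower, and 662 and 1172 of all genes, with Timm44 (adjusted p = 0.0626) and Timm23 (0.0563, edgeR) no longer past the threshold.

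Members near 0 changed sign without passing the threshold, and the cause was not tested. Mtx1 was at 0.0252 with RLE size factors, 0.0793 with the upper quartile, 0.0274 without a filter and 0.0330 with DESeq2. With library totals, Tomm40l was at -0.0973, Tomm70a at -0.127, Timm10 at -0.0275, Chchd5 at -0.113, Timm8b at -0.0857 and Timm29 at -0.168. With the distal segment alone, Timm22 was at 0.284, Tomm70a at -0.236, Pmpca at -0.000858, Timm10 at -0.134, Chchd5 at -0.210, Timm8b at -0.190, Timm29 at -0.272 and the Grpel1 to Grpel2 ratio at -0.317. Tomm70a, Chchd5, Timm8b and Timm29 are counted on 1 segment each, so their counts in that fit were the same, while scaling and filtering were computed anew. Timm29 was at -0.0212 with at least 10 counts in every library. Drawn down to the smallest total, Tomm40l was at -0.0780 and Timm29 at -0.0151. With 1 library left out, the ranges were -0.0728 to 0.178 for Tomm40l, -0.0139 to 0.147 for Tomm70a, -0.0387 to 0.159 for Chchd5, -0.0683 to 0.13 for Timm29, -0.0970 to 0.0655 for Mtx1 and -0.00443 to 0.414 for the Grpel1 to Grpel2 ratio.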
